A study of Mus musculus with 10 samples.

Results

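The 10 genes described here encode the TNF and lymphotoxin ligands of helper T cells: Tnf, Lta, Ltb, Tnfsf4, Tnfsf8, Tnfsf9, Tnfsf10, Tnfsf11, Tnfsf13b and Tnfsf14. They were taken by gene symbol from a table of 23393 named genes, and all 10 were present. The family was chosen with earlier results of these data known, so its counts of called genes describe it and are not independent evidence. RNA was measured in cultured Th22 cells of 10-week-old C57BL/6 mice that had been sorted as CD4+ and positive for a tdTomato reporter of Il22. Riok2hKO mice carried Riok2f/+ Vav1cre/+ Il22tdtomato/+ (5 libraries), so that Cre driven by Vav1 deletes 1 copy of Riok2, a kinase gene of ribosome assembly, across blood cells and not in T cells alone. WT mice carried Riok2+/+ Vav1cre/+ Il22tdtomato/+ (5 libraries), so both groups carried the Cre and the reporter. Naive splenic CD4+ cells of both genotypes had been activated through CD3 and CD28 with 30 ng/mL of IL-6, 20 ng/mL each of IL-23 and IL-1 beta, 400 nM of FICZ (a ligand of the aryl hydrocarbon receptor) and antibodies that block IL-4 and interferon gamma. The comparison asks what the loss of 1 Riok2 copy changes in the messages for these ligands.

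Most TNF superfamily ligands are made as membrane proteins that assemble into trimers. Some are cut from the surface and act as soluble cytokines, and others act by cell contact. Lymphotoxin alpha alone is secreted and binds the TNF receptors, whereas in complex with lymphotoxin beta it stays on the membrane and binds the lymphotoxin beta receptor, a signal known for building lymphoid tissue and for the barrier response of the gut. Most receptors of the family signal through TRAF adaptors to NF-kappaB, and activated T cells use OX40, CD30, 4-1BB and HVEM in this way as costimulatory receptors.

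The values are TPM, a share of a library's transcripts corrected for length, so levels of different genes can be compared, while read depth is unknown. Riok2 averaged 13.7 ± 1.71 TPM in Riok2hKO and 28.3 ± 1.57 TPM in WT (SD, n = 5 each), which is 48.3% of the WT level. Il22, whose reporter was sorted on, averaged 316 ± 33.8 TPM in Riok2hKO and 59.2 ± 12.7 TPM in WT. The labels did not say that libraries came from separate mice, so p-values measure the spread between libraries only. WT replicate 1 stood apart. In it 122 tested genes lay 1 log2 unit or more under the average of its group's other 4 libraries, against 6 to 20 such genes in any other library. Of the measured markers of other cells, 5 of 6 for B cells, 7 of 9 for myeloid and dendritic cells and 5 of 6 for stromal cells were below 1 TPM in every library. Their sums were 1.16 to 2.35, 3.75 to 5.04 and 8.47 to 11.3 TPM in Riok2hKO, against 1.67 to 3.09, 3.34 to 5.61 and 7.43 to 11.7 TPM in WT. The summed level of 7 NK and CD8 T cell markers was 13.2 to 16.5 TPM in Riok2hKO and 19.0 to 22.2 TPM in WT. Cd8b1 made up 11.3 to 14.6 TPM of it in Riok2hKO and 17.1 to 19.4 TPM in WT, while Cd8a stayed under 0.5 TPM. The summed level of 8 T cell markers was 2355 to 2401 TPM in Riok2hKO and 2525 to 2546 TPM in WT, with 4 of the 8 lower by limma. Of 8 genes listed for Th22 identity, 7 were tested and all 7 rose, with a median log2 fold change of 1.58. Beside Il22 itself they included Il23r, the receptor gene for IL-23 (2.08), the cytokine genes Il17f (1.74) and Il17a (1.58), and Rora, a transcription factor gene (0.53). The part of these marker shifts in the ligand results was not tested. In sorted cells measured in bulk, fewer cells that express a gene and less RNA per cell cannot be told apart.

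Of the 10 ligand genes, 9 reached 1 TPM in at least 5 of the 10 libraries and were tested. By limma on log2(TPM + 1), Ltb and Lta rose in Riok2hKO, 0 fell and 7 did not pass an adjusted p of 0.05. At an unadjusted p under 0.05 the counts were the same, 2 higher and 0 lower. Among all 10332 genes tested, 9.58% were called higher and 7.55% lower. The median log2 fold change of the 9 was 0.10, against -0.0060 over all genes tested. Ltb, Lta and Tnfsf11 were the 3 ligand genes whose groups did not overlap, each with every Riok2hKO library above every WT library, where 8.72% of all tested genes had that order and 5.87% the opposite one.

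**Figure D1:**
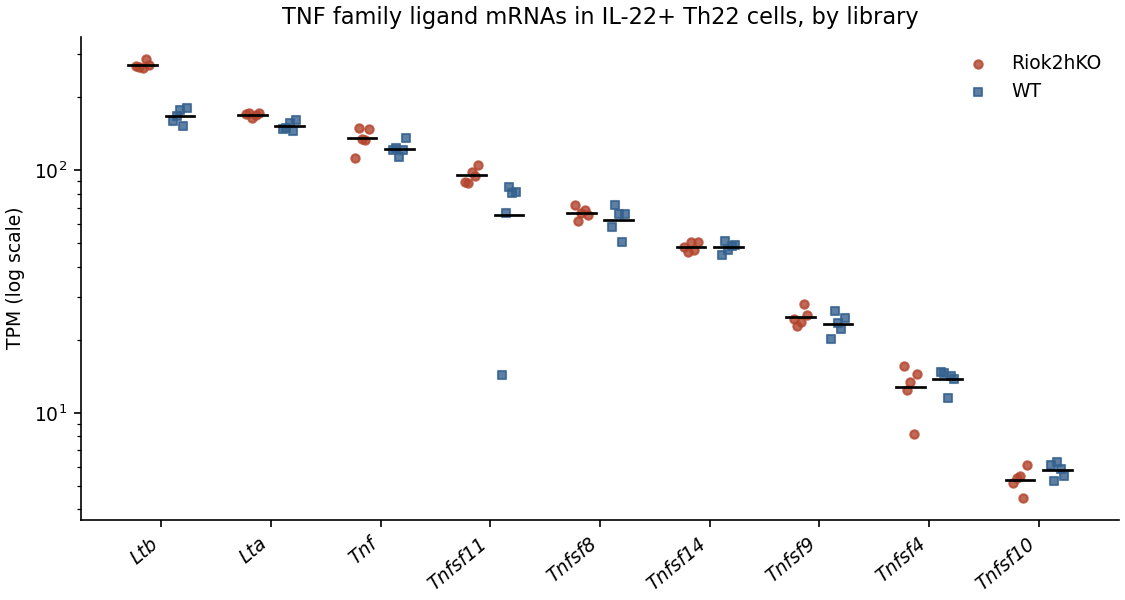
TPM on a log axis of the 9 ligand genes that passed the filter, ordered by level, with 1 point per library for Riok2hKO (circles) and WT (squares) and a line at each mean. Ltb separates by genotype with means of 272 and 168 TPM, and 1 WT library stands far below the rest for Tnfsf11, at 14.4 TPM. Tnfsf13b, at most 0.22 TPM, is not drawn.

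The ligand genes spanned a wide range of levels. In Riok2hKO the order from high to low was Ltb, Lta, Tnf, Tnfsf11, Tnfsf8, Tnfsf14, Tnfsf9, Tnfsf4, Tnfsf10 and Tnfsf13b, and no pair of neighbours in that order overlapped between libraries. In WT the order of the means was the same, but neighbours overlapped at 3 places: Ltb with Lta, Tnfsf11 with Tnfsf8, and Tnfsf8 with Tnfsf14. The 10 genes summed to 807.5 to 860 TPM in Riok2hKO libraries and 588 to 718 TPM in WT libraries. Without Ltb the sums were 537.6 to 587 TPM in Riok2hKO and 428 to 537 TPM in WT, and the lowest Riok2hKO sum was then above the highest WT sum by less than 1 TPM. Ltb made up 32.8% ± 1.03 of the summed TPM in Riok2hKO and 25.4% ± 1.27 in WT (SD, n = 5 each).

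Ltb, Tnf and Lta lie side by side on mouse chromosome 17 within the major histocompatibility complex. On the mm10 assembly RefSeq places Ltb at 35194507 to 35196305, Tnf at 35199367 to 35202007 and Lta at 35203165 to 35205578. Riok2 is on the same chromosome at 17374332 to 17394899. RefSeq promoters of build GRCm38.p6 were found for 8 of the 10 genes, all except Tnfsf4 and Tnfsf9. The 250 bases before the start that the promoter table gives are shown for the 3 clustered genes, 2 of which passed the test. For Ltb and Tnf that start is the edge of the RefSeq span. GENCODE vM21 places the start of Ltb at 35194439, inside the window shown, so positions below are counted from the RefSeq start. For Lta it is 35205351, which is also the start in GENCODE vM21, while the RefSeq span reaches further, so 227 of the 250 bases shown for Lta lie inside that span. The sequences are written 5′ to 3′ on the strand of the gene. Capitals mark matches to the NF-kappaB consensus on either strand.
Ltb (chr17:35194257-35194506, plus strand): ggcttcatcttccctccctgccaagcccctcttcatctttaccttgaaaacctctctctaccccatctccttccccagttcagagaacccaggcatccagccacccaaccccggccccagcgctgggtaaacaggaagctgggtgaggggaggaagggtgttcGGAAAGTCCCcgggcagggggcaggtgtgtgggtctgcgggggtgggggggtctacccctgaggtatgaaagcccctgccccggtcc
Lta (chr17:35205352-35205601, minus strand): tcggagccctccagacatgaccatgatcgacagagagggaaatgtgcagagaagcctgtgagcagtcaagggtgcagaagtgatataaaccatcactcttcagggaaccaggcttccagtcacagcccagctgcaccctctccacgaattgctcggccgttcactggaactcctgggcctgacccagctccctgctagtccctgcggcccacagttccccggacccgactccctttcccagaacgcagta
Tnf (chr17:35202008-35202257, minus strand): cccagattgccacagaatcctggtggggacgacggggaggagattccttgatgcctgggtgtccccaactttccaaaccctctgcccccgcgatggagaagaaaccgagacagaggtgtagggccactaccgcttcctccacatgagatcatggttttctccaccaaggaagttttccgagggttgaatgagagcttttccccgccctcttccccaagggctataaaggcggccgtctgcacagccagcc

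The Ltb window held 1 NF-kappaB match, GGAAAGTCCC, beginning 87 bases before the start, and the Lta and Tnf windows held 0. The Lta window does not show what lies before the outer edge of its RefSeq span. Such a match was found in 7.25% of the 32851 RefSeq promoter windows of the same length. The NFAT core GGAAA, on either strand, was found once in the Ltb window, within the NF-kappaB match, 2 times in the Lta window and 3 times in the Tnf window, and 55.6% of all windows held it. The AP-1 motif TGANTCA was found 0 times in the 3 windows and in 6.75% of all windows. These matches describe the letters only.

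Ltb, which encodes the membrane anchor of the lymphotoxin complex, had the largest change among the ligand genes that passed the test. It measured 269.9, 266, 264.5, 288 and 272 TPM in Riok2hKO replicates 1 to 5, against 160.1, 168, 177, 152 and 180.5 TPM in WT replicates 1 to 5. The lowest Riok2hKO library was far above the highest WT library. The ratio of mean TPM was 1.63, and the log2 fold change was 0.70 (SE 0.046, 95% interval 0.60 to 0.80, limma adjusted p = 3.17e-06). The exact permutation p was 0.00794, the smallest that reassigning the libraries can give.

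Lta, which encodes lymphotoxin alpha, rose by a small amount. It measured 170.5, 172, 164, 169 and 172 TPM in Riok2hKO, against 148, 149.8, 157, 145 and 162 TPM in WT. The groups did not overlap, but the nearest libraries of the 2 groups, at 164 and 162 TPM, were close. The log2 fold change was 0.16 (SE 0.034, 95% interval 0.083 to 0.23, limma adjusted p = 0.00844, exact permutation p = 0.00794). With each library left out in turn it ranged between 0.14 and 0.18 and passed the test each time. Within each library Ltb was 1.605 ± 0.059 times the TPM of Lta in Riok2hKO and 1.10 ± 0.033 times in WT (SD, n = 5 each). The levels of the 2 messages thus lay further apart in Riok2hKO than in WT, with ratios of 1.55 to 1.70 and 1.05 to 1.13. Protein was not measured, so these ratios do not describe the make-up of the membrane complex. Tnf was 0.80 ± 0.083 times the TPM of Lta in Riok2hKO and 0.81 ± 0.049 times in WT, and these ratios overlapped.

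Tnf, which encodes the inflammatory cytokine TNF, did not pass the test. It measured 113, 149, 135, 134 and 148 TPM in Riok2hKO, against 122, 124, 113, 121 and 135 TPM in WT. Riok2hKO replicate 1 was level with the lowest WT library, and the groups overlapped. The log2 fold change was 0.14 (SE 0.071, 95% interval -0.017 to 0.29, limma adjusted p = 0.208). This estimate is close to the 0.16 of Lta, and the difference between the changes of the 2 genes was not tested. Without Riok2hKO replicate 1 the log2 fold change was 0.20 and Tnf passed (limma adjusted p = 0.0292).

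Tnfsf11, which encodes RANKL, the ligand that drives osteoclasts and the maturation of some epithelial and dendritic cells, had the result that turned most on 1 library. It measured 89.1, 88.3, 98.2, 94.9 and 105 TPM in Riok2hKO, against 14.4, 66.5, 85.6, 80.2 and 81.4 TPM in WT. In WT replicate 1 the gene fell short of the other 4 WT libraries, with a deviation of -2.36 log2 units, and 6 tested genes, Tnfsf11 included, were that low or lower there. With all libraries the log2 fold change was 0.75 (SE 0.39, 95% interval -0.095 to 1.597, limma adjusted p = 0.211). Without WT replicate 1, the WT mean was 78.4 ± 8.29 TPM (SD, n = 4), the log2 fold change was 0.28 (SE 0.071) and the gene passed (limma adjusted p = 0.0171). It also passed in a fit that adjusts for how many genes each library detected, at a log2 fold change of 1.16 (limma adjusted p = 0.0168). That fit kept WT replicate 1, which had the most detected genes of the 10 libraries (14695), and its estimate was far from 0.28. The groups did not overlap with or without that library, and the exact permutation p with it was 0.00794. In that library Ltb, Lta and Tnf deviated by -0.078, -0.044 and -0.016 log2 units, and without it Ltb and Lta had log2 fold changes of 0.68 and 0.15, both still past the test.

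**Figure D2:**
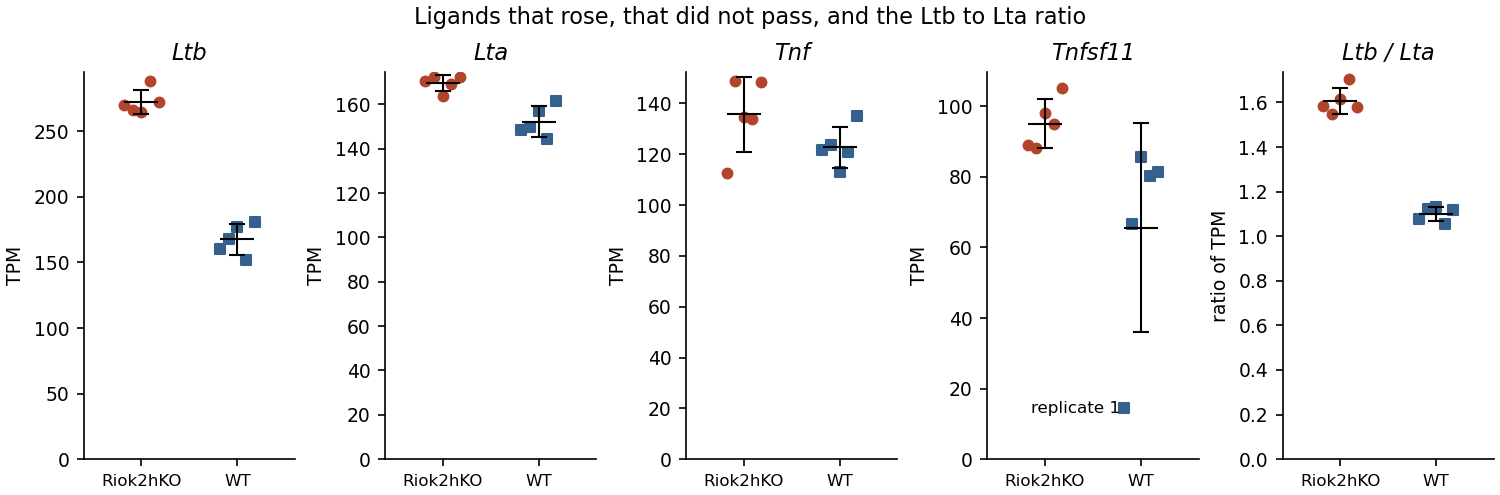
TPM of Ltb, Lta, Tnf and Tnfsf11 and the ratio of Ltb to Lta TPM in each library, with axes from 0, Riok2hKO (circles) left of WT (squares), and bars for the mean and SD of 5 libraries. The Ltb to Lta ratio is 1.55 to 1.70 in Riok2hKO and 1.05 to 1.13 in WT, and the low WT library of Tnfsf11 is replicate 1.

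Of the costimulatory ligands, which act between T cells and the cells they meet, none passed the test. Tnfsf8, which encodes the CD30 ligand, measured 71.9, 61.7, 66.5, 68.2 and 65.3 TPM in Riok2hKO, against 58.1, 71.9, 65.9, 50.8 and 66.2 TPM in WT (log2 fold change 0.10, 95% interval -0.075 to 0.27, limma adjusted p = 0.434). Tnfsf14, which encodes LIGHT, was the most even ligand, at 46.1 to 50.5 TPM in Riok2hKO and 44.6 to 50.9 TPM in WT. Its 95% interval was -0.086 to 0.11 on the log2 scale, so a larger change in either direction lies outside that interval.

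Tnfsf9, which encodes the 4-1BB ligand, measured 22.7 to 28.2 TPM in Riok2hKO and 20.1 to 26.3 TPM in WT (log2 fold change 0.093, 95% interval -0.068 to 0.25). Tnfsf4, which encodes the OX40 ligand, measured 15.6, 12.5, 13.3, 8.17 and 14.4 TPM in Riok2hKO, against 14.7, 14.6, 11.5, 14.2 and 13.8 TPM in WT. Riok2hKO replicate 4 was the lowest of all 10 libraries, and without it the log2 fold change turned to 0.018 in place of -0.12 (95% interval with it -0.42 to 0.17). The groups of all 4 costimulatory ligands overlapped.

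The remaining ligands were low. Tnfsf10, which encodes the death ligand TRAIL, measured 4.47 to 6.09 TPM in Riok2hKO and 5.24 to 6.27 TPM in WT (log2 fold change -0.11, 95% interval -0.28 to 0.060). Tnfsf13b, which encodes the B cell survival factor BAFF, was listed at 0 in 4 of the 10 libraries. Its highest values were 0.22 TPM in Riok2hKO and 0.18 TPM in WT, and it was not tested.

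Beyond these 10, the family has 8 more ligand genes on the list used here, of which 3 passed the filter. Fasl, which encodes Fas ligand, a trigger of cell death, fell. It measured 6.62, 6.68, 4.54, 5.34 and 6.32 TPM in Riok2hKO, against 9.56, 10.1, 9.13, 11.2 and 11.3 TPM in WT, with no overlap (log2 fold change -0.71, SE 0.098, limma adjusted p = 0.000618). Cd40lg, the helper ligand for B cells and dendritic cells, averaged 229 ± 12.1 TPM in Riok2hKO and 208 ± 18.7 TPM in WT (SD, n = 5 each, log2 fold change 0.15, limma adjusted p = 0.109). Cd70, the ligand of CD27, averaged 8.40 ± 2.64 TPM in Riok2hKO and 11.5 ± 1.86 TPM in WT (log2 fold change -0.44, limma adjusted p = 0.109). By limma 0 of the 3 rose, against 1 at an unadjusted p under 0.05, and 1 fell. That is 33.3% of only 3 genes called, against 17.1% of all genes tested. Cd70 also passed without WT replicate 1 or Riok2hKO replicate 2, which makes 2 that fell, and with the replicate number as a block (limma adjusted p = 0.033).

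Of 16 receptor genes, 12 were tested, 1 rose and 2 fell, with a median log2 fold change of 0.064. The called share of the 12 was 25%, against 17.1% of all genes tested. Tnfrsf8, which encodes CD30, rose most. It measured 86.7, 83.7, 84.4, 102 and 75.8 TPM in Riok2hKO, against 36.2, 31.6, 30.6, 32.3 and 31.6 TPM in WT, and the groups were far apart (log2 fold change 1.38, SE 0.070, limma adjusted p = 5.78e-07). CD30 message was 1.16 to 1.496 times that of its ligand Tnfsf8 in Riok2hKO libraries and 0.44 to 0.64 times in WT libraries. Receptor and ligand thus changed places in their order of abundance between the genotypes, with the ligand message at about the same level in both.

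Tnfrsf4, which encodes OX40, was the most abundant receptor of the list and fell. It measured 689, 699, 646, 627 and 676 TPM in Riok2hKO, against 734, 782, 753, 809 and 798 TPM in WT. The groups did not overlap (log2 fold change -0.22, SE 0.035, limma adjusted p = 0.0019). Its ligand Tnfsf4 was at 8.17 to 15.6 TPM in Riok2hKO and 11.5 to 14.7 TPM in WT, far below the receptor in both. Tnfrsf9, which encodes 4-1BB, measured 117, 85.8, 78.5, 69.1 and 87.4 TPM in Riok2hKO, against 87.4, 111, 124, 119 and 119 TPM in WT. Riok2hKO replicate 1 was among the WT values and WT replicate 1 among the Riok2hKO values, and the gene did not pass (log2 fold change -0.36, limma adjusted p = 0.0693). It passed without WT replicate 1 (-0.45, limma adjusted p = 0.0151) and without Riok2hKO replicate 1 (-0.47, limma adjusted p = 0.0113). With array weights it also passed (-0.41, limma adjusted p = 0.0267).

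Tnfrsf13c, which encodes the BAFF receptor, fell at a level near the filter, at 0.41 to 1.25 TPM in Riok2hKO and 1.27 to 2.68 TPM in WT (log2 fold change -0.58, limma adjusted p = 0.0226). It lost its call without WT replicate 5 (limma adjusted p = 0.0513) or Riok2hKO replicate 4 (limma adjusted p = 0.0524), which leaves 1 receptor that fell. Of the TNF receptors, Tnfrsf1a averaged 16.3 ± 1.2 TPM in Riok2hKO and 15.2 ± 1.24 TPM in WT (limma adjusted p = 0.354). Tnfrsf1b averaged 22.3 ± 2.35 TPM in Riok2hKO and 20.6 ± 1.28 TPM in WT (SD, n = 5 each, limma adjusted p = 0.331). Tnfrsf14, which encodes HVEM, the receptor of LIGHT, averaged 9.66 ± 0.98 TPM in Riok2hKO and 9.09 ± 1.03 TPM in WT (limma adjusted p = 0.551).

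The lymphotoxin beta receptor gene Ltbr averaged 0.116 TPM in Riok2hKO and 0.212 TPM in WT, under the filter, so the receptor of the membrane lymphotoxin complex was at most 0.49 TPM in any library, where Ltb was at least 152 TPM. The RANK gene Tnfrsf11a and its decoy Tnfrsf11b were also under the filter, with means of at most 0.132 TPM in Riok2hKO and 0.10 TPM in WT. Tnfrsf17, another BAFF family receptor, was listed at 0 in all libraries. The TRAIL receptor gene Tnfrsf10b (15.7 ± 0.943 TPM in Riok2hKO and 15.1 ± 1.47 TPM in WT) and the mouse decoy receptors Tnfrsf22 and Tnfrsf23 did not pass, with log2 fold changes of 0.057, -0.015 and 0.071. Neither did Tnfrsf13b, which encodes TACI (log2 fold change -0.015), nor Tnfrsf26 (0.16, limma adjusted p = 0.108). Tnfrsf26 passed without WT replicate 1 (0.22, limma adjusted p = 0.0113), which makes 2 receptors that rose. Array weights gave the same count, with Tnfrsf26 at 0.18 (limma adjusted p = 0.0459).

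**Figure D3:**
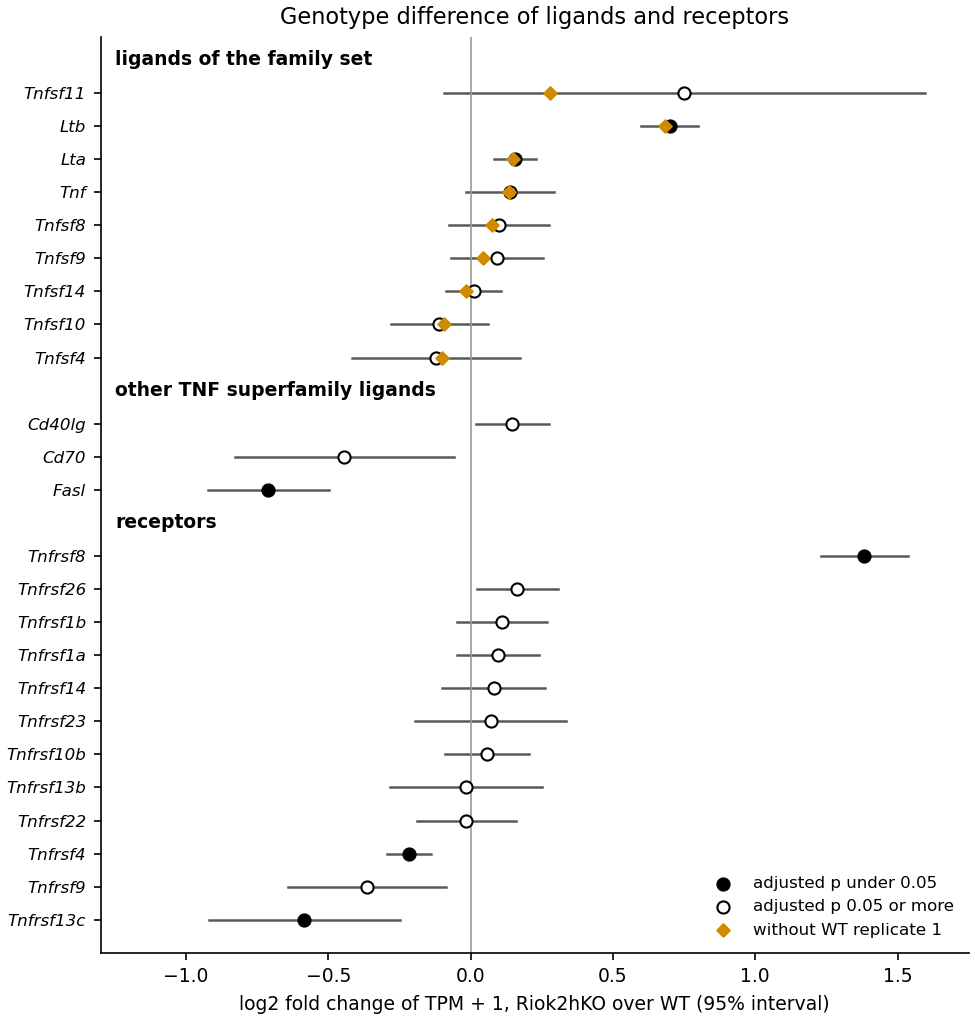
Log2 fold change of TPM + 1, Riok2hKO over WT, with its 95% interval, for the tested ligands and receptors, filled where the limma adjusted p was under 0.05. Diamonds give the ligands without WT replicate 1, where Tnfsf11 stands at 0.28 in place of 0.75. Tnfrsf8 is far to the right at 1.38, and Fasl lies to the left at -0.71.

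**Figure D4:**
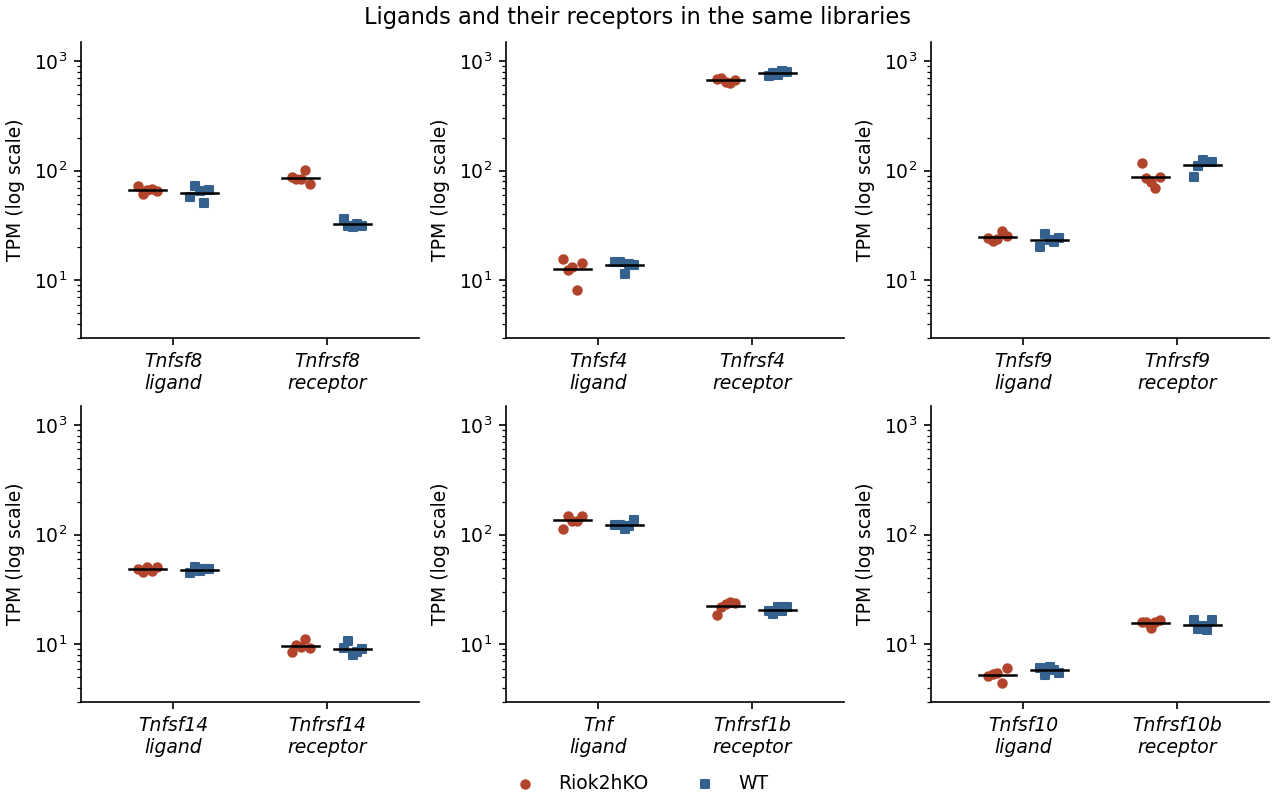
TPM on a log axis of 6 ligands (left in each panel) and 1 receptor of each (right), with points for Riok2hKO (circles) and WT (squares) libraries and a line at each mean. Tnfrsf8 lies above Tnfsf8 in Riok2hKO and below it in WT, while Tnfrsf4 exceeds Tnfsf4 in both.

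Downstream of these receptors, 19 adaptor, ubiquitin and feedback genes were tested, of which 6 rose and 1 fell, with a median log2 fold change of 0.093. Thus 36.8% of the 19 were called, against 17.1% of all genes tested. With each library left out in turn 5 or 6 rose, and 5 did in 7 of the 10 fits. Tnfaip3, which encodes the deubiquitinase A20, averaged 28.3 ± 1.54 TPM in Riok2hKO and 22.1 ± 1.96 TPM in WT (SD, n = 5 each, log2 fold change 0.34, limma adjusted p = 0.00364). Its partner Tnip1 averaged 56.5 ± 2.93 TPM in Riok2hKO and 45.5 ± 4.5 TPM in WT (0.31, limma adjusted p = 0.00783). Birc3, which encodes an inhibitor of apoptosis, rose by 0.15, and the deubiquitinase gene Cyld by 0.20 (limma adjusted p = 0.0157 and 0.0476). Traf6, which encodes an adaptor, averaged 16.2 ± 0.872 TPM in Riok2hKO and 12.5 ± 0.417 TPM in WT (0.35, limma adjusted p = 0.000804). Casp8, the protease of death receptors, averaged 76.8 ± 2.78 TPM in Riok2hKO and 64.1 ± 2.92 TPM in WT (0.26, limma adjusted p = 0.00134). The gene that fell was Rbck1, which encodes a subunit of the linear ubiquitin ligase (-0.090, limma adjusted p = 0.0326). In this list 0 fell without WT replicate 1, 4 or 5 or Riok2hKO replicate 1, 2, 3 or 4, and 2 fell without Riok2hKO replicate 5.

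NF-kappaB genes moved in both directions. Of 14 tested, 3 rose and 3 fell, with a median of -0.026. This made 42.9% called, against 17.1% of all genes tested. The inhibitor gene Nfkbia averaged 733 ± 14.6 TPM in Riok2hKO and 635 ± 33.5 TPM in WT (SD, n = 5 each, log2 fold change 0.21, limma adjusted p = 0.00169). Bcl3, which encodes a nuclear cofactor, averaged 21.3 ± 1.61 TPM in Riok2hKO and 16.3 ± 1.09 TPM in WT (0.36, limma adjusted p = 0.00249). The third that rose was Chuk, which encodes a kinase of the pathway (0.32, limma adjusted p = 0.0381). The precursor gene Nfkb1 averaged 54.5 ± 1.8 TPM in Riok2hKO and 60.4 ± 1.96 TPM in WT (-0.15, limma adjusted p = 0.0178). Nfkb2, the precursor of the pathway that the lymphotoxin beta receptor uses, averaged 194.7 ± 4.19 TPM in Riok2hKO and 219.8 ± 15.8 TPM in WT (-0.17, limma adjusted p = 0.0231). Nfkbib fell by 0.12. With a library left out, 2 or 3 genes of the list rose. A single gene of the list fell without WT replicate 2, 3 or 4 or Riok2hKO replicate 4, and Nfkb2 lost its call in 5 of the 10 fits with a library left out.

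Among transcription factors driven by the T cell receptor, some of which also act on Tnf and lymphotoxin genes, 4 of 17 rose and 1 fell, with a median of 0.071. Such action was not tested here. The called share of the 17 was 29.4%, against 17.1% of all genes tested. Nfatc2 averaged 17.4 ± 1.21 TPM in Riok2hKO and 10.3 ± 1.43 TPM in WT (SD, n = 5 each, log2 fold change 0.70, limma adjusted p = 0.000313). Jun averaged 12.4 ± 1.22 TPM in Riok2hKO and 8.24 ± 1.15 TPM in WT (0.54, limma adjusted p = 0.00202). Irf4 averaged 120 ± 3.52 TPM in Riok2hKO and 105 ± 5.61 TPM in WT (0.19, limma adjusted p = 0.0069), and the fourth was Fosl2 (0.23, limma adjusted p = 0.0455). Egr1 fell, with 85.3 ± 1.98 TPM in Riok2hKO and 98.3 ± 6.49 TPM in WT (-0.20, limma adjusted p = 0.0103). Without WT replicate 1, 3 of the list fell.

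Of the genes that cut or carry TNF at the surface, 1 of 4 rose and 0 fell by limma, also at an unadjusted p under 0.05. That is 25% of only 4 genes called, against 17.1% of all genes tested. Rhbdf2, which encodes iRhom2, a carrier of the protease that sheds TNF, measured 17.96, 17.3, 18.8, 21.3 and 17.7 TPM in Riok2hKO, against 15.5, 15.1, 14.8, 14.9 and 15.6 TPM in WT. The groups did not overlap (log2 fold change 0.28, SE 0.057, limma adjusted p = 0.00686). The protease gene Adam17 averaged 27.3 ± 1.1 TPM in Riok2hKO and 27.5 ± 0.633 TPM in WT (SD, n = 5 each, 95% interval -0.10 to 0.074). Adam10 and Frmd8 had log2 fold changes of 0.11 and -0.025 and did not pass.

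Some proteins that bind AU-rich or stem-loop sites in cytokine messages help set the life of Tnf mRNA. The 16 genes listed here encode proteins that bind such sites and also Cnot proteins of the decay machinery. They are called decay genes for short, and what each does to mRNA life was not tested. Of the 16, 5 rose and 0 fell by limma, with a median of 0.13. This made 31.25% called, against 17.1% of all genes tested. At an unadjusted p under 0.05 there were 8 higher and 1 lower. Rc3h1 and Rc3h2, which encode the roquin proteins, averaged 5.32 ± 0.358 and 2.75 ± 0.454 TPM in Riok2hKO, against 4.31 ± 0.299 and 1.94 ± 0.173 TPM in WT. Their log2 fold changes were 0.25 (limma adjusted p = 0.0239) and 0.34 (limma adjusted p = 0.0299). Hnrnpd (0.21, limma adjusted p = 0.0336), Khsrp (0.30, limma adjusted p = 0.034) and Zfp36l2 (0.25, limma adjusted p = 0.0383) were the others. Zfp36, which encodes tristetraprolin, did not pass (-0.087). These calls were close to the threshold: with any 1 library left out 1 to 3 genes of the list rose, and without the filter on low values 0 did.

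Around the Tnf cluster, of the 10 genes of the table on each side, 15 were tested, 1 rose and 3 fell, with a median log2 fold change of -0.036. Thus 26.7% of the 15 were called, against 17.1% of all genes tested. The nearest tested neighbours, Lst1 on the side of Ltb and Nfkbil1 on the side of Lta, had log2 fold changes of -0.0030 and -0.0095. The 1 that rose was Prrc2a, with 35.7 ± 1.57 TPM in Riok2hKO and 24.0 ± 4.8 TPM in WT (SD, n = 5 each, 0.58, limma adjusted p = 0.00769). With a library left out Prrc2a ranged from 0.44 to 0.63 and passed each time. Those that fell were the class I genes H2-D1 (-0.12, limma adjusted p = 0.00401), H2-Q5 (-0.40, limma adjusted p = 0.0232) and H2-Q7 (-0.27, limma adjusted p = 0.0221). The class I gene H2-Q6 had the largest estimate, -1.44 (SE 0.52), but did not pass (limma adjusted p = 0.0789). It was listed at 0 in 4 of the 10 libraries. Reads of these near-identical class I genes are divided by estimation, which makes their separate values uncertain. Without WT replicate 3, 5 of the neighbours fell, and without WT replicate 5 a single one did.

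**Figure D5:**
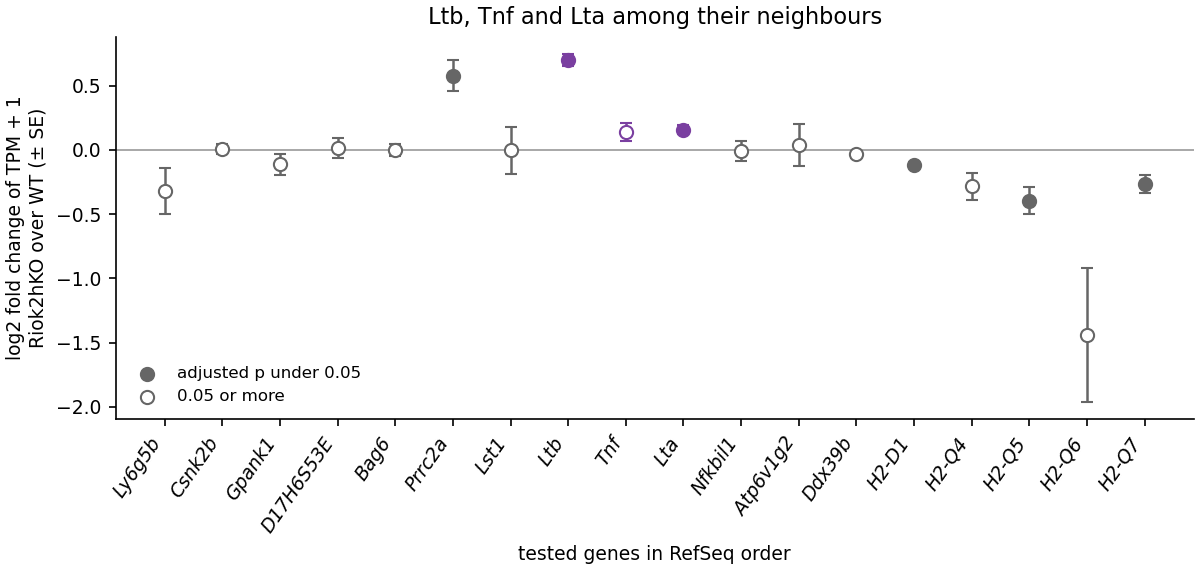
Log2 fold change of TPM + 1, Riok2hKO over WT, with its SE, for the tested genes around Ltb, Tnf and Lta (in purple) in RefSeq order, filled where the limma adjusted p was under 0.05. Ltb is highest at 0.70, Prrc2a follows at 0.58, and the class I genes at the right end lie below 0. H2-Q6 is lowest at -1.44, with a wide SE of 0.52, and did not pass.

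The genes most like Ltb and Lta were found by the root mean square difference of centred log2(TPM + 1) values over the 10 libraries, among 7783 other tested genes that averaged 5 TPM or more. For Ltb they were Jarid2, Themis and Il2ra, at differences of 0.083, 0.094 and 0.097, where Ltb itself spread by 0.36 about its mean. Themis, a T cell signalling gene, averaged 105 ± 8.05 TPM in Riok2hKO and 65.0 ± 2.4 TPM in WT. Il2ra, which encodes the alpha subunit of the receptor for IL-2, averaged 302 ± 21.7 TPM in Riok2hKO and 180 ± 5.77 TPM in WT (SD, n = 5 each). Jarid2, which encodes a partner of a chromatin-modifying complex, was much lower, at 11.7 ± 0.621 TPM in Riok2hKO and 7.56 ± 0.475 TPM in WT. For Lta they were Cdc42se1, Swi5 and Sf1, at 0.035, 0.037 and 0.042, where Lta spread by 0.090. These likenesses are descriptions over libraries in which many genes differ by genotype.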

How the data were processed

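The deposited values are TPM. Per the labels' protocols, the authors used Bowtie against the mm10 transcriptome and took abundances from RSEM, which divides reads shared by near-identical genes. Per the submitters' processing notes RSEM was 1.2.8. No Bowtie version is stated in the sources used. TPM values are shares, so they depend on each other, and depth is unknown. Libraries were made by SMART-seq2 from 5000 sorted cells, with 10 cycles of cDNA amplification and 38-nucleotide paired reads. The kit does not mark strand.

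Of 23420 rows, 27 carried a date in place of a symbol and were left out. Tested genes reached 1 TPM in 5 or more of the 10 libraries. Their log2(TPM + 1) values were fitted in limma 3.58.1 under R 4.3.3 (mean-variance trend, genotype term, Benjamini-Hochberg over 10332 genes). Fold changes are on that scale, which understates changes of low genes. Each ligand also had an exact permutation test (two-sided). The fit was tested on simulated data with independent normal noise for each gene. Such data do not imitate an outlier library or the dependence between TPM shares, so these were not checked. Alternatives covered 2 pseudocounts, 2 filters, 2 scalings, array weights, the variance trend, adjustment for how many genes had TPM above 0, a replicate block, and each library left out. Genes were named by rule: the 10 ligands, tested receptors and other ligands, up to 4 genes with the smallest p in each list, and the 3 most alike. Birc3, Cyld, Rbck1, Chuk, Nfkbib, Fosl2, Zfp36l2, Zfp36, Lst1, Nfkbil1 and H2-Q6 were named after their values were seen. The single genes named from the marker and Th22 identity lists, and the receptors under the filter, were also outside this rule. The ligands and lists were chosen with earlier results of these data known. Figures were drawn with matplotlib 3.10.9.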

Additional observations from a re-analysis of the deposited data

Results flagged for a closer look

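In groups of 5 libraries, 8 of 102 groups checked (51 genes in each genotype) held a library whose gap to its nearest neighbour was over 0.71 of the group's range, and chance flags about 1 group in 20. Among the ligands, Tnfsf11 in WT replicate 1 was at 14.4 TPM, where the next WT library was at 66.5 TPM, and Tnfsf4 in WT replicate 3 was at 11.5 TPM, where the next was at 13.8 TPM. WT replicate 1 was also the low library for Egr1 (87.2 TPM) and Prrc2a (15.7 TPM). WT replicate 3 was the low library for Adam17, at 26.5 TPM. In Riok2hKO, Tnfrsf10b was low in replicate 3 (14.0 TPM), Tnfrsf13b was low in replicate 2 (8.7 TPM) and Tnfaip3 was high in replicate 5 (30.9 TPM). The values are given as measured, and the cause was not tested.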

How the results depend on the processing

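Ltb and Lta rose under all 20 alternatives, with log2 fold changes of 0.66 to 0.73 and 0.14 to 0.18, and 0 ligands fell in any of them. The count of ligands that rose was 2 or 3, with Tnfsf11 or Tnf as the third. With a library left out, 1211 to 1749 of all genes changed (682 to 1027 higher, 529 to 728 lower). The labels do not say whether the replicate numbers pair libraries. Deviations of same-numbered libraries correlated at -0.034 to 0.068, with no other library pairs set beside them, so pairing was left undecided. With the replicate block 1444 genes changed, 2 other ligands fell, 0 signalling genes fell and 2 mRNA decay genes rose, and the 2 ligand calls stayed. With detected genes as a covariate, 1 other ligand, 5 NF-kappaB genes, 7 T cell receptor-driven factors and 3 decay genes rose and 1 decay gene fell. Array weights gave 2 receptors that rose and 3 that fell. A mean of at least 5 TPM gave 1 receptor that fell and 3 decay genes that rose, since low genes were not tested, and no filter gave 0 decay genes. Quantile normalization gave 2 signalling genes that fell and 2 decay genes that rose, median-of-ratios scaling 1 decay gene that fell, and no trend 0 signalling genes and 1 NF-kappaB gene that fell. With a library left out, ranges were 1 to 2 for other ligands that fell, 1 to 2 receptors that rose and 1 to 3 that fell, 0 to 2 signalling genes, 1 to 3 NF-kappaB genes and 1 to 3 T cell receptor-driven factors that fell, 1 to 3 decay genes that rose and 0 to 1 that fell, and 1 to 5 neighbours that fell.

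Genes near 0 changed sign without passing. Tnfsf14 was at -0.0073 with quantile normalization, -0.0056 with array weights and -0.016 to 0.031 with a library left out. Tnfrsf13b was at 0.0090 with array weights and -0.102 to 0.087 with a library left out. With the covariate Tnfrsf22 was at 0.063 and Tnfrsf23 at -0.028. With a library left out, Tnfsf4 ranged from -0.195 to 0.018, Tnfrsf22 from -0.069 to 0.029 and Adam17 from -0.029 to 0.0058. The cause was not tested. TPM keeps no depth, so counting error could not be given for low genes such as Tnfsf13b, Ltbr and Tnfrsf13c.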
